A study of Mus musculus with 4 samples.

Results

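The EGR and NR4A immediate early factors and their companions were 8 genes chosen by name, Egr1, Egr2, Egr3, Nr4a1, Nr4a2, Nr4a3, Ier2 and Ier3, of 56793 gene rows in the table of transcript abundance. They were chosen with the old against young values in view, so their differences between the groups are given as a description without a test. RNA had been taken from cells of mouse bone marrow sorted by flow cytometry as megakaryocytes, the cells that shed platelets, with 2 libraries from young and 2 from old animals of the genotype labelled Blc6. No treatment or engineered allele is given for either group, and the labels give no ages, sorting gate or number of animals per library. Nothing says that the libraries of a group came from separate animals, and every p-value printed here rests on a spread that may be technical.

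Immediate early genes are switched on within minutes of a signal at the cell surface, without new protein synthesis, because their activators are already bound at the promoter and need only be phosphorylated. The EGR proteins are zinc-finger transcription factors that bind GC-rich sites and induce their own corepressors, the NAB proteins. The NR4A proteins are orphan nuclear receptors whose activity follows their abundance rather than a classical ligand. In the blood system Egr1 is known for a role in the quiescence of stem cells and Nr4a1 for the survival of patrolling monocytes. Ier3 encodes a small membrane-associated regulator of cell survival and ERK signalling, and Ier2 a nuclear protein.

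The sequences before the transcript starts are shown because the members' known activators, SRF and CREB, act there. RefSeq promoter windows of build GRCm38.p6 matched 5 of the 8 members, and the 250 bases before each start were searched on both strands. Egr1, Egr3 and Ier2 had no match. Capitals mark matches to the CArG box that SRF binds (by name), to TGACG, the core of the cyclic AMP response element TGACGTCA that CREB binds, to the EGR site GCGGGGGCG, and to TATAAA. A match on the opposite strand appears as the reverse complement.
Egr2, chr10:67537619-67537868, plus strand: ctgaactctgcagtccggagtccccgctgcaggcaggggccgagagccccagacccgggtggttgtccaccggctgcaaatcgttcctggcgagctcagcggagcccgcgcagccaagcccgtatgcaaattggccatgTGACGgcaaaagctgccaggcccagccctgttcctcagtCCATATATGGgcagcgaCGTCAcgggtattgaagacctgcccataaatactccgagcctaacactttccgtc
Nr4a1, chr15:101266596-101266845, plus strand: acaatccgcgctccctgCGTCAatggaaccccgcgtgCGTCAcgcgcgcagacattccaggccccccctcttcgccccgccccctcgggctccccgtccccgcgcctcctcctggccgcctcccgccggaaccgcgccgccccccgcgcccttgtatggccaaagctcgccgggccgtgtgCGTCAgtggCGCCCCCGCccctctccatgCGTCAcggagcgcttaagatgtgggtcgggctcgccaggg
Nr4a2, chr2:57124004-57124253, minus strand: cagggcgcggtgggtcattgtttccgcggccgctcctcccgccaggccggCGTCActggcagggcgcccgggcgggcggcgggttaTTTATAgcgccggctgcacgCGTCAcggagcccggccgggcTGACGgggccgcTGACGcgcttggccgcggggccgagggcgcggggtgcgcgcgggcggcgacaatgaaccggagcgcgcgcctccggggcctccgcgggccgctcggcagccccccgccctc
Nr4a3, chr4:48045055-48045304, plus strand: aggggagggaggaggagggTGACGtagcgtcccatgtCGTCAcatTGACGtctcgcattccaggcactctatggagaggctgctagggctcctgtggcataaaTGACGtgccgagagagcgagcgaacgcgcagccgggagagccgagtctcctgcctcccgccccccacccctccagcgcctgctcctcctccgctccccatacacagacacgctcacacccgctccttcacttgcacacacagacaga

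Each of the 3 NR4A promoters held 4 matches to TGACG in these 250 bases, a number that was picked out after the matches were seen. At least 1 match was present in 17.8% of the 32851 windows of the table and at least 4 in 0.137% of them. Egr2 had 5 annotated starts, of which the third in genome order is printed, and 4 of its 5 windows held a CArG box, against 1.47% of all windows. The last 3 windows overlap and hold the same box, so these are 2 separate boxes. The Egr2 window printed here also held 2 matches to TGACG, one on either side of the CArG box, and at least 2 were present in 3.9% of all windows. Nr4a1 alone among the 5 held the EGR site GCGGGGGCG, which was present in 2.57% of all windows. No window of the 5 members held the whole element TGACGTCA (1.55% of all windows), the other EGR site GCGTGGGCG (0.536%) or the NR4A site AAAGGTCA (1.34%). TATAAA, on the opposite strand, was found for Nr4a2 and occurred in 12.4% of windows. The ETS letters CCGGAA, not capitalised here, were found for Nr4a1 and for another window of Egr2 and occurred in 12.0% of windows. Ier3 had none of these motifs. A match is a string of letters and not a measured binding site.

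**Figure D1:**
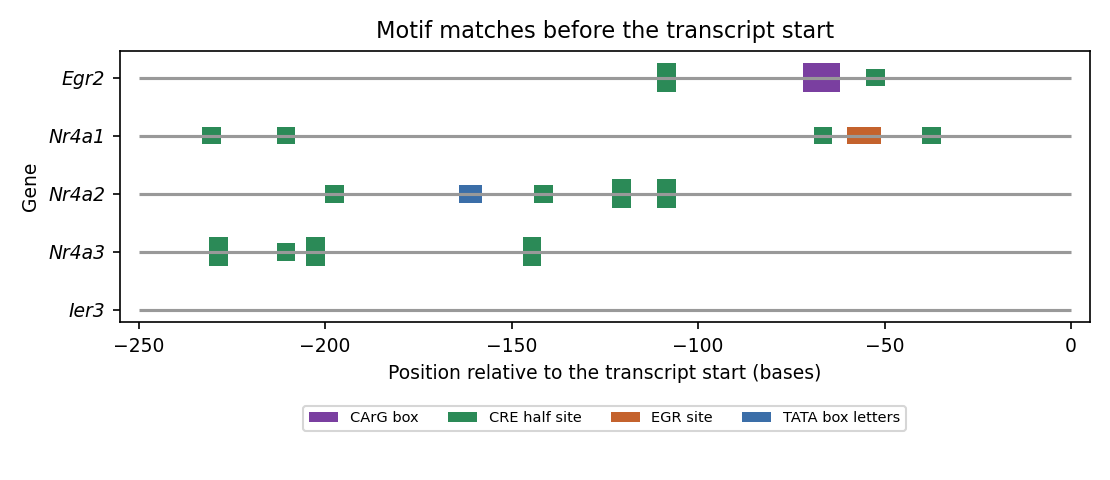
Motif matches in the 250 bases before the transcript start of the 5 members with a RefSeq window outside chromosome 18. Positions are distances from the start in bases (for Egr2, the window printed in the text). Tall bars are on the strand of the gene, short bars on the opposite strand. Each NR4A gene has 4 matches to TGACG, and the CArG box of Egr2 lies between a pair of them.

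The gene models also differed between the families. The EGR transcripts had 2 exons each, Ier3 had 2 and Ier2 had 1, while the 3 NR4A transcripts had 8 exons each. The median was 9 exons over the 11757 tested protein-coding genes that had a complete transcript, and 87.2% of these genes had more than 3. Few exons were thus a property of the EGR and IER members, while their transcripts were not all short, with 4484 bases for Egr1 and 3940 for Egr3 against 2553 for Nr4a1.

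Immediate early messages are often short-lived because AU-rich elements, repeats of ATTTA in the 3' untranslated region, recruit decay factors. Ier3 had 5 copies of ATTTA in 613 bases, or 8.16 per kb, a density above that of 98.2% of the genes with such a region. Nr4a1 had 3 copies in 543 bases, or 5.53 per kb, above 94.7% of genes. Egr2 had 2.50, Egr3 2.65 and Nr4a2 2.26 per kb, Egr1 1.65 and Nr4a3 1.62, and the median of the tested genes was 1.22 per kb. Ier2 had no copy in 755 bases. The 30-base stretches with most copies in the densest members are shown with each ATTTA in capitals.
Ier3: ctccgtgtctaattaatATTTAtgtATTTA
Nr4a1: gATTTAtatttgtgtattttcctggATTTA

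Abundance was given as TPM, a share of all transcripts corrected for transcript length, so that levels of different genes can be set side by side. Ier2 was the most abundant member at 275 and 259 TPM in the young libraries. It stood between rank 303 and rank 460 of all gene rows in the 4 libraries. In the young libraries Nr4a1, Egr1 and Ier3 followed at about the same height, and Egr1 and Ier3 overlapped there. Egr2, Egr3 and Nr4a2 stood more than an order of magnitude lower, and Nr4a3 was below 1 TPM in every library. The order changed in the old libraries, where Egr1 and Nr4a1 lay well above Ier3. Egr1 lay above Nr4a1 in both old libraries and below it in both young ones. Among the low members, Egr2, Egr3 and Nr4a2 overlapped one another in the old libraries, so their order is not resolved.

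**Figure D2:**
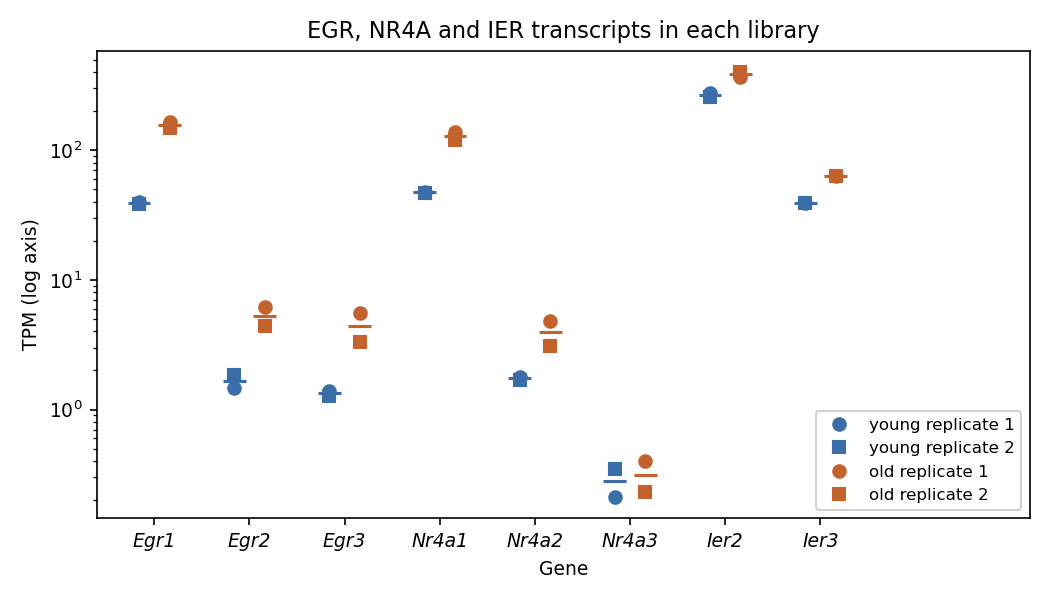
TPM of each member on a log axis, with young libraries in blue and old ones in orange, replicate 1 as circles and replicate 2 as squares, and the mean of each group as a line. The old libraries lie above the young ones for 7 of the 8 genes, and Nr4a3 overlaps.

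Egr1, the best known of the EGR factors, was at 40.2 and 38.7 TPM in young and at 164 and 149 TPM in old libraries. The mean was 39.5 ± 1.04 TPM in young and 156 ± 10.5 TPM in old (SD, n = 2 each), a ratio of 3.96. Both old libraries lay far above both young ones, and Egr1 moved from ranks 3899 and 4146 among all gene rows to ranks 791 and 866. The log2 difference of 1.96, on the log2(TPM + 1) scale used throughout, was larger than that of 98.9% of tested genes.

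Egr2, needed for peripheral myelin and for lymphocyte tolerance, was at 1.47 and 1.85 TPM in young and at 6.16 and 4.38 TPM in old libraries. Egr3, which works beside Egr2 in lymphocytes, was at 1.39 and 1.28 TPM in young and at 5.57 and 3.30 TPM in old libraries. The groups did not overlap for either gene, with ratios of the means of 3.18 for Egr2 and 3.32 for Egr3, but the old libraries stood 33.8% and 51.3% of their mean apart. On the log2 scale, where the added 1 weighs on such low values, the differences were 1.23 and 1.19. Egr1 supplied 92.5% to 95.1% of the summed EGR abundance in each library, so the family total, 43.1 and 41.9 TPM in young and 175 and 157 TPM in old, was nearly that of Egr1 alone. The remaining family member, Egr4, was listed at 0 in 1 library of each group and at 0.0418 and 0.0520 TPM in the others.

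Among the NR4A receptors Nr4a1 was at 47.7 and 47.0 TPM in young and at 138 and 120 TPM in old libraries. The mean was 47.4 ± 0.466 TPM in young and 129 ± 13.0 TPM in old (SD, n = 2 each), a ratio of 2.72, and the log2 difference was 1.42. The young libraries were nearly equal and both old ones stood above them. Nr4a2, known for its part in the development of dopamine neurons, was at 1.78 and 1.69 TPM in young and at 4.79 and 3.07 TPM in old libraries, a ratio of 2.27. Its groups did not overlap, and the gap between the old libraries was 43.8% of their mean. Nr4a3, an inducible relative of Nr4a1, was at 0.213 and 0.346 TPM in young and at 0.401 and 0.230 TPM in old libraries. Its groups overlapped, with a ratio of 1.13, and it fell under the minimum of a mean of 1 TPM that the other 7 members passed. Nr4a1 supplied 95.9% to 97.3% of the summed NR4A abundance in each library.

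The IER genes had the smallest ratios among the 7 members above the minimum, but only Ier2 stood above all other members in every library. Ier2 was at 275 and 259 TPM in young and at 366 and 401 TPM in old libraries, a ratio of 1.44 with means of 267 ± 11.2 and 384 ± 24.6 TPM (SD, n = 2 each). Ier3 was at 39.3 and 39.2 TPM in young and at 63.6 and 62.7 TPM in old libraries, a ratio of 1.61, and its replicates were the closest of all members. Both genes had no overlap between groups, with log2 differences of 0.52 for Ier2 and 0.67 for Ier3. In TPM rather than in ratio, Ier2 differed by as much as Egr1, with a difference in the mean of 117 TPM for each. The 8 members together summed to 407 and 389 TPM in young and to 749 and 743 TPM in old libraries.

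**Figure D3:**
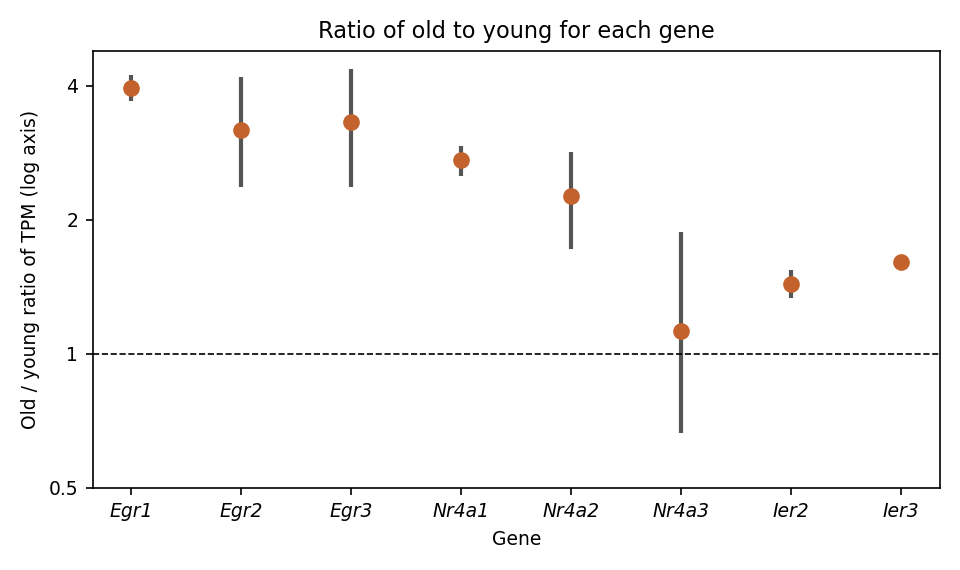
Ratio of the mean TPM in old to that in young for each member (point, log axis), with a bar from the lowest old over the highest young library to the highest old over the lowest young library. The EGR ratios, 3.18 to 3.96, lie above those of Ier2 and Ier3, and the bar of Nr4a3 crosses 1.

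Both old libraries lay above both young ones for 7 of the 8 members. The same was true of 21.8% of the 16073 genes tested, and since the members were chosen on this contrast nothing is read from the count. Old replicate 1 was above old replicate 2 in 7 of the 8 members, all but Ier2, with a median log2 ratio of 0.20. Among all tested genes 67.7% stood higher in old replicate 1, with a median of 0.09. Young replicate 1 was above young replicate 2 in 6 of the 8 members, against 33.3% of all tested genes. The members thus varied within the old group as well as between the groups, and the low-level ones varied most.

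The scaling of TPM touches these values. The immunoglobulin share of all TPM was 13.3% and 13.1% in old libraries against 1.03% and 0.896% in young, and in a fixed total this lowers every other gene in old. The median log2 difference of all tested genes was -0.10 as deposited and 0.07 once immunoglobulin genes were removed and the rest rescaled. With that removal the log2 difference was 2.15 for Egr1, 1.61 for Nr4a1, 1.39 for Egr2, 1.35 for Egr3, 0.98 for Nr4a2, 0.86 for Ier3 and 0.71 for Ier2. After median-ratio scaling the log2 difference was 2.02 for Egr1 and 0.58 for Ier2, and the direction held for all 7 tested members.

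The authors' deposited table of 1255 changed genes listed 5 of the 8 members, each as higher in old. Of the genes tested here, 3.16% are listed there in that direction. That list rests on the same libraries and contrast on which the members were chosen, so nothing is read from this count. In the authors' deposited table the log2 fold change was 1.39 (SE 0.205) for Nr4a1 and 1.22 (SE 0.760) for Egr1. The authors' deposited table gave 0.69 (SE 0.407) for Nr4a2, 0.54 (SE 0.589) for Egr3 and 0.41 (SE 0.199) for Ier3. Egr2, Ier2 and Nr4a3 were not among its genes. In the authors' deposited table Nr4a1 thus had the larger fold, and the standard error of Egr1 was the larger of the pair. Egr1 had the larger ratio in TPM. The deposited fold is listed beside normalized counts and the ratio is of mean TPM, so these are unlike measures and their orders need not match. In the authors' deposited table of terms for genes higher in old, 50 of 211 terms held at least 1 member, Egr3 being in 27 and Egr1 in 15 of them.

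Tests across all genes could be made for genes of the same pathway that are no members, from lists that were drawn up with earlier results of these data known. Old and young were compared with limma, and 19.9% of the 16073 tested genes were called at an adjusted p under 0.05, 5.2% higher and 14.7% lower. That was 835 higher and 2369 lower, a split that turned on the scaling, with 953 higher and 900 lower after median-ratio scaling and 1295 higher and 508 lower with immunoglobulin genes removed. As deposited, 24 of 37 other immediate early genes tested rose and 2 fell, with a median log2 difference of 0.49 beside -0.10 over all tested genes. After median-ratio scaling 20 of them were called higher and 2 lower, and without immunoglobulin genes 27 were higher and 1 was lower.

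AP-1 subunits and other early response genes were among those that rose. Fosb, an AP-1 subunit, was at 9.81 and 13.3 TPM in young and at 108 and 66.2 TPM in old libraries, with a log2 difference of 2.78 (limma adjusted p = 0.0106). Atf3, a stress-induced bZIP factor, was at 15.8 and 15.3 TPM in young and at 56.8 and 48.0 TPM in old libraries (log2 difference 1.69, limma adjusted p = 0.00380). Fos, the partner of the JUN proteins, was at 512 and 466 TPM in young and at 909 and 869 TPM in old libraries (log2 difference 0.86, limma adjusted p = 0.00863). These 3 genes had no overlap between the groups. Dusp5, a phosphatase that acts on nuclear ERK, was at 16.1 and 16.3 TPM in young and at 49.6 and 42.2 TPM in old libraries (log2 difference 1.44, limma adjusted p = 0.00560). Csrnp1, a nuclear protein, was at 27.5 and 22.9 TPM in young and at 60.5 and 55.4 TPM in old libraries (log2 difference 1.17, limma adjusted p = 0.0103). The exceptions, named after their values were seen, were Npas4, a neuronal activity factor, which fell from a mean of 4.09 to 1.09 TPM, and Klf10, a TGF-beta-induced factor, which fell from 40.7 to 29.9 TPM. Immediate early genes with values but no call included Myc at means of 54.3 and 52.4 TPM and Klf4 at 79.0 and 68.8 TPM, both also named after their values were seen. Calls depended on single libraries. The list's median log2 difference was 0.55 without young replicate 1 and 0.38 without young replicate 2. It was 0.46 without old replicate 1 and 0.49 without old replicate 2.

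Of the other EGR and IER family genes only Ier5, an ERK-induced regulator of heat shock factor activity, passed the minimum of 1 TPM. It was at 76.9 and 66.4 TPM in young and at 97.6 and 98.6 TPM in old libraries and rose by 0.45 (limma adjusted p = 0.0295), and it is also counted among the immediate early genes above. The call was lost without any 1 of the 4 libraries, where 0 genes of the list were called, and under median-ratio scaling (adjusted p = 0.0550).

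Of the regulators upstream of the members, none of 15 transcription factors that act on EGR, NR4A and IER promoters was called by limma, with 2 at an unadjusted p under 0.05. Mrtfa, an SRF coactivator, was at means of 98.1 and 88.3 TPM, Atf1, a CREB relative, at 83.3 and 73.3 TPM, and Mef2d, which acts on Nr4a1, at 69.0 and 67.6 TPM in young and old. Srf itself, named after its values were seen, was at 58.6 and 57.9 TPM in young and at 50.2 and 50.5 TPM in old libraries (limma adjusted p = 0.0652). The list's median log2 difference was -0.03 beside -0.10 over all tested genes.

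Of 13 kinases upstream of SRF and CREB that were tested, 4 fell and none rose, against 14.7% of all genes called lower. Prkaca, the catalytic subunit of protein kinase A, fell from a mean of 56.0 to 42.3 TPM (log2 difference -0.40, limma adjusted p = 0.0281). Map2k1, which encodes MEK1, fell from 103 to 84.2 TPM, and Mapk3, which encodes ERK1, from 303 to 255 TPM. These falls were small and turned on the scaling, since after median-ratio scaling or removal of immunoglobulin genes none of the 4 was called. Leaving out either young library left 0 calls. Without old replicate 1 there were 2 lower, and without old replicate 2 there were 1 higher and 1 lower.

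Among 8 genes for proteins that bind these factors 2 fell and none rose, against 14.7% of all genes called lower, and the median log2 difference was -0.11 beside -0.10 over all tested genes. Rxra, a partner receptor of NR4A proteins, fell from 23.0 to 17.7 TPM (limma adjusted p = 0.0340). None of the 8 was called after median-ratio scaling, after removal of immunoglobulin genes or without any 1 of the 4 libraries. The EGR corepressors were named after their values were seen. Nab1 was at 37.8 and 38.5 TPM in young and at 37.2 and 34.4 TPM in old libraries (limma adjusted p = 0.387). Nab2, which EGR factors induce, was at 6.17 and 5.08 TPM in young and at 6.02 and 6.48 TPM in old libraries, where the groups overlapped (limma adjusted p = 0.502).

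Of 17 tested genes known as EGR or NR4A targets in other cells 5 fell and none rose, against 14.7% of all genes called lower. The median log2 difference was -0.22 beside -0.10 over all tested genes. Id2, an inhibitor of helix-loop-helix factors, fell from 62.7 to 45.4 TPM (limma adjusted p = 0.0208). Tgfb1, the cytokine TGF-beta 1, fell from 241 to 185 TPM (limma adjusted p = 0.0217). Plau, the urokinase activator of plasminogen, fell from 22.6 to 16.2 TPM, Fn1, fibronectin, from 609 to 501 TPM and Trp53, the p53 protein, from 67.1 to 55.2 TPM. After median-ratio scaling Plau alone of these was called lower, and with immunoglobulin genes removed none was, while Nfkbia, the NF-kappaB inhibitor, was called higher (adjusted p = 0.0235). Leaving out either young library left 0 calls, and without old replicate 2 there were 2 lower and 1 higher.

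Heat shock genes were listed as genes known to rise when tissue is dissociated, as immediate early genes also can. Of 11 tested, 8 fell and none rose, against 14.7% of all genes called lower, and the median log2 difference was -0.49. Both old libraries lay below both young ones for 10 of them, against 46.1% of all tested genes. Hspa8, the constitutive HSP70, was at 1016 and 1009 TPM in young and at 549 and 577 TPM in old libraries (limma adjusted p = 0.00600). Hsph1, an HSP70 co-chaperone, fell from a mean of 28.9 to 15.0 TPM (limma adjusted p = 0.00962). Hsp90aa1, the inducible HSP90, fell from 299 to 212 TPM (limma adjusted p = 0.0163). Hspa1b and Hspa1a, the inducible HSP70 genes, fell from 4.97 to 0.599 TPM and from 3.28 to 0.508 TPM, but they are near-identical copies that can share reads, so their single values are uncertain. With immunoglobulin genes removed, or after median-ratio scaling, 6 still fell, and without young replicate 1 or without young replicate 2 the number was 3. The part of cell handling in the members' differences was not tested.

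**Figure D4:**
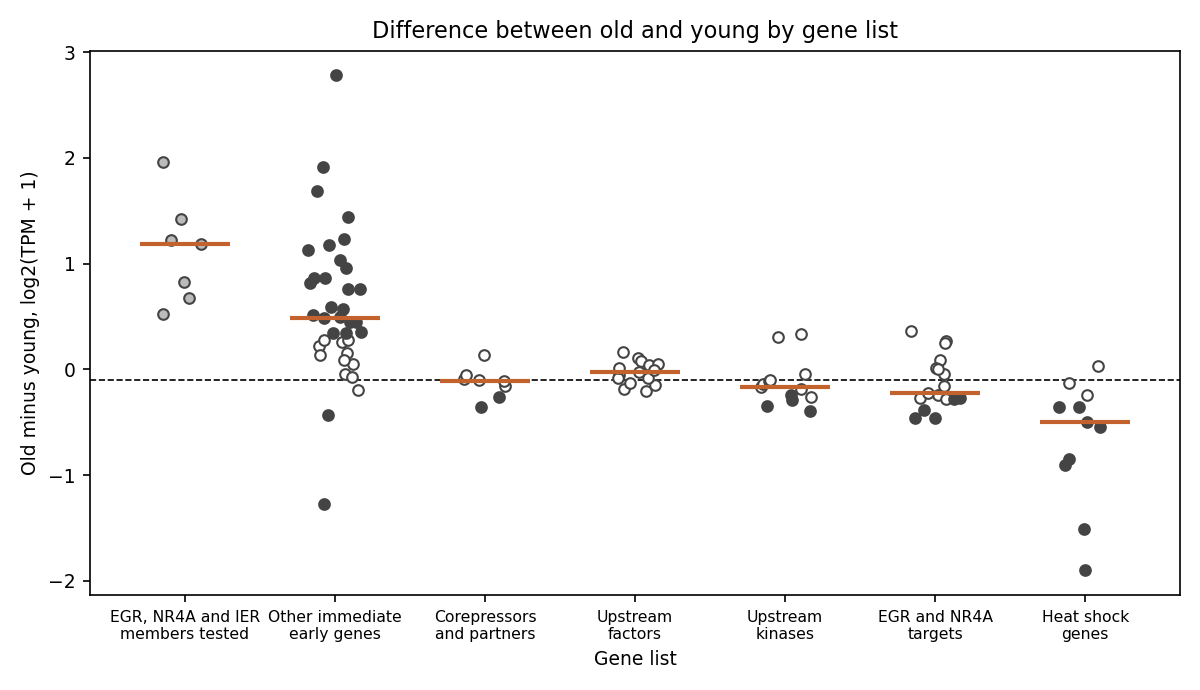
Difference between old and young on the log2(TPM + 1) scale for each tested gene, by list; filled points passed limma's adjusted p under 0.05, open points did not, grey points are members and carry no test, orange lines are list medians and the dashed line is the median of all tested genes. Other immediate early genes have a median of 0.49 and heat shock genes one of -0.49.

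Each library was bulk RNA, so fewer cells of a type and less RNA per cell cannot be told apart, and markers of several cell types moved between the groups. Megakaryocyte markers were present, with Pf4, the platelet factor 4 chemokine of the study's title, at 746 and 832 TPM in young and at 433 and 598 TPM in old libraries, yet the 15 listed markers summed to 1764 and 2321 TPM in young and 977 and 1451 TPM in old libraries. The 16 neutrophil markers summed to between 125344 and 146886 TPM in the 4 libraries, led by S100a9 and S100a8. Plasma cell markers summed to 2736 and 2506 TPM in young and 40399 and 40860 TPM in old libraries, and 8 of 10 rose. Igkc, the kappa light chain, was the highest of them, at 2526 and 2325 TPM in young and 39428 and 39985 TPM in old libraries. Erythroid markers summed to 9963 and 9918 TPM in young and 2996 and 3527 TPM in old libraries, and all 11 tested fell. Of 14 monocyte and macrophage markers 10 fell, of 12 B cell markers 10 fell, and of 10 stem and progenitor markers 5 rose and 1 fell. Over all tested genes 5.2% were called higher and 14.7% lower. These marker calls rest on TPM as deposited. Calls of markers after other scalings are not given here, and small falls may turn on the scaling. No listed marker was at 0 in all 4 libraries. Which cells the members' transcripts came from, and the part of these shifts in their differences, was not tested.

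**Figure D5:**
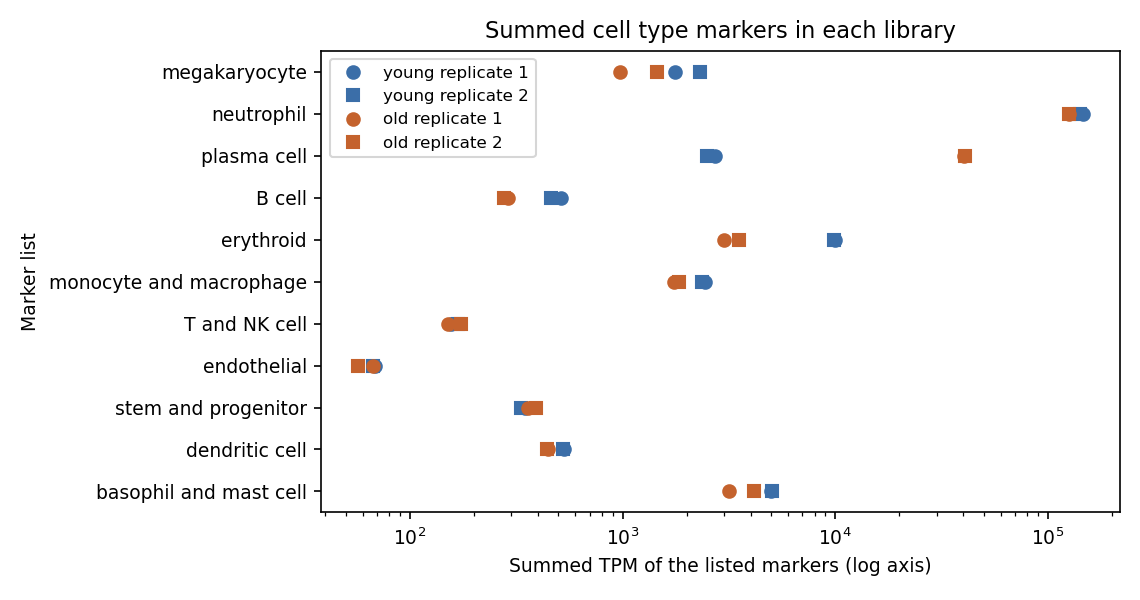
Summed TPM of each list of cell type markers in each library on a log axis, with young in blue, old in orange, replicate 1 as circles and replicate 2 as squares. Plasma cell markers stand higher in old, erythroid and megakaryocyte markers lower, and neutrophil markers are the highest in every library.

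The genes whose profile over the 4 libraries came nearest to the mean profile of the members were sought among 9280 other genes whose mean reached 10 TPM. Likeness was the root mean square distance between centred log2(TPM + 1) values, and it describes 4 libraries only. The nearest was C130026I21Rik, at a distance of 0.03, with 6.71 and 7.10 TPM in young and 16.2 and 13.2 TPM in old libraries. Plk2, a polo-like kinase induced by serum, followed at 0.03, and then came Pim1, a serine/threonine kinase induced by cytokines, at 0.06, with 118 and 126 TPM in young and 271 and 240 TPM in old libraries. Atosa and Btbd19 were also at 0.06.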

How the data were processed

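RNA abundance was compared between 2 young and 2 old libraries of mouse bone marrow cells sorted and labelled as megakaryocytes, in which neutrophil markers summed higher than megakaryocyte markers. The deposited values are TPM, per the file headers. Each library sums to 1000000, so depth is unknown and no counting interval is given. The libraries were strand-specific and made from polyadenylated RNA, according to the labels' protocols. The builds mm9 and GRCm39 and the tools DESeq2, STAR, TopHat and Trim Galore appear without roles, per the submitters' processing notes. The authors' deposited list of changed genes holds log2 fold changes with standard errors, p-values and a mean signal of normalized counts, and the authors' deposited term tables hold log10 p-values.

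The 16073 genes whose mean reached 1 TPM were tested two-sided on log2(TPM + 1) with limma 3.58.1 (R 4.3.3). Variances were moderated toward a trend on level, and p-values were adjusted by Benjamini-Hochberg over these genes (threshold 0.05). The smallest p of an exact permutation test at this size is 0.333. The procedure was checked on simulated data. The members and lists were chosen with earlier results of these data known. Named were all 8 members, from each list up to 5 called genes with the smallest p or, where at most 1 was called, up to 3 with the highest level, from the marker lists the highest genes, the 5 nearest profiles, and Pf4. Promoter sequences came from RefSeq (GRCm38.p6), and transcript models from GENCODE vM21 of that build, matched by symbol, taking the complete protein-coding transcript with the longest coding length. Such a transcript was found for 99.9% of 11769 tested protein-coding genes, and densities of ATTTA were computed for the 11376 with at least 50 bases of 3' untranslated region. Protein sequences were not used here, and some genes of the lists are counted but not reported singly here. Alternatives were other pseudocounts, filters, scalings, an untrended variance, replicate number as a block, and each library left out. Figures were drawn with matplotlib 3.10.9.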

Additional observations from a re-analysis of the deposited data

How the results depend on the processing

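The direction of the members' log2 differences was fixed by how they were chosen, and the filters, variance settings and blocks leave these values as they are, so their direction is no sign of stability. Over the pseudocounts, scalings and left-out libraries they ranged from 1.89 to 2.15 for Egr1, 1.32 to 1.61 for Nr4a1, 1.02 to 1.60 for Egr2, 0.88 to 1.62 for Egr3, 0.57 to 1.10 for Nr4a2, 0.66 to 0.86 for Ier3 and 0.45 to 0.71 for Ier2. Nr4a3 was fitted only with no filter on low values, at 0.04. The planned comparison of protein sequences was not run.

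Counts of called genes moved more, and where no cause is given the cause was not tested. Genes changed numbered 3204, but 130 with no filter on low values (33589 genes tested), 572 with variances without a trend, 1853 (953 higher, 900 lower) with median-ratio scaling and 1803 (1295 higher, 508 lower) with immunoglobulin genes removed. With no filter the counts were 2 for other immediate early genes, 2 for heat shock genes and 0 for family relatives, partners, kinases and targets. Without a variance trend they were 11 for other immediate early genes, 4 for heat shock genes and 0 for those same 4 lists. Median-ratio scaling gave 0 relatives, 0 partners, 1 kinase and 1 target, and removal of immunoglobulin genes 0 partners, 1 kinase and 1 target.

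The deviations of same-numbered libraries correlated at -0.146, and nothing in the labels says that a number marks a shared animal or day. With the replicate block, 1252 genes were called, with 0 relatives, 0 partners, 0 kinases and 2 targets. A block with crossed numbers, added after seeing the data, called 4649 genes and 7 kinases. With each library left out in turn, where the lone library of a group is assumed to vary like the others, the counts ran from 353 to 2500 for all genes, 8 to 21 for other immediate early genes, 3 to 9 for heat shock genes, 0 to 4 for targets and 0 to 2 for kinases, and were 0 for relatives and partners. No count of upstream transcription factors rose above 0 under any alternative. Only 2 libraries a group and an unknown depth limit the low-level members, Egr2, Egr3, Nr4a2 and Nr4a3.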
